A study of Drosophila melanogaster with 8 samples.

Results

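The genes described here were at low levels or listed at 0 in wild-type Drosophila melanogaster embryos collected up to 3 h after egg laying and were first on in the collection of 3–4 h. A gene was a member if its wild-type FPKM (sequenced fragments relative to the length of the transcript and the size of the library) was below 1 at 0–0.5 h, 1–2 h and 2–3 h and at least 10 at 3–4 h. Its locus also had to span at least 300 bases, and Cufflinks, the program that computed the values, had to give it the status OK in every table. This rule took 77 of the 15598 genes listed, of which 45 had a symbol other than a CG or CR number in the tables. The members were chosen by the wild-type FPKM values up to 3–4 h, which are given as a description. The values at 4–5 h and all values in maternal NSUN2 knockout embryos were not used by the rule.

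Polyadenylated RNA was sequenced from embryos of w1118 mothers (wild type) at 0–0.5 h, 1–2 h, 2–3 h, 3–4 h and 4–5 h, and from embryos of NSUN2-/- mothers (maternal NSUN2 knockout) at 0–0.5 h, 2–3 h and 4–5 h. All fathers were w1118, so each knockout embryo had a wild-type father, and the mutation, a CRISPR/Cas9 lesion of the gene for an RNA m5C methyltransferase, was absent from the wild-type crosses. Nsun2 lies on the X chromosome, so that sons of mutant mothers carry the mutant allele only and daughters also a wild-type copy from the father. Of the 2 mutant lines made, the first was used for most of the study, and which gave these libraries is not given in the sources used here. Each collection pooled many embryos laid within the window, and 1 table was deposited per condition. According to the methods, replicates entered as their mean FPKM, but whether a table holds 1 library or a mean is not given in the sources used here. No difference below therefore has a replicate check or a p-value. The interval quoted for a value is that of Cufflinks and covers uncertainty within a library only.

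In the fly, the first hours of development run on RNA and protein that the mother loaded into the egg. The zygotic genome is switched on in waves, a small early wave before the embryo forms cells and a large one at and after cellularization. Genes of the later wave include regulators of segment identity, of mesoderm and of neural precursors, followed by the receptors, adhesion proteins and transporters of tissues that are taking shape at gastrulation and during germ band extension. Genes for muscle contraction and for the proteins of the cuticle belong to differentiating tissues much later in embryogenesis.

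Between 6733 and 8148 genes per table had FPKM of at least 1, the most at 3–4 h in wild type. The tables hold no fragment counts, so the depth is unknown. For members with FPKM of at least 1, the half-width of the interval had a median of 8.08% of the value in wild type at 3–4 h, 10.1% at 4–5 h and 10.9% in the knockout at 4–5 h, but 26.1% in the knockout at 2–3 h, where levels were low. Nsun2, the mutated gene, was at 0.128, 0.213 and 1.18 FPKM in the knockout, against 2.61, 2.71 and 6.59 FPKM at the same stages of wild type.

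The wild-type table of 3–4 h stood apart from the others. Only genes within the rule's limits on span and status were counted here. Of these, 41 had FPKM of at least 3 in this table and below 1 in each of the other 7 tables. Between 0 and 2 genes did so for any other table. With FPKM of at least 10 there were 9 such genes, and no other table had one. These limits contain those of the rule, so the 9 are members by construction (Mlp60A, Osi6, Osi7, wupA, CG4115, Mlc1, up, CG30413 and ect). The summed FPKM of 6 muscle markers (Mhc, Mlc2, Tm2, wupA, up and Act88F) was 52.7 in this table, with 4 of the 6 at 1 or more, and from 0.241 to 3.60 in the other 7. Mhc, the muscle myosin heavy chain, was at 0.739 FPKM there and Act88F at 0.174 FPKM. The 24 Osiris genes, a family of membrane proteins of cuticle-forming tissue that was summed after the values were seen, summed to 71.5 in this table, with 9 of 24 at 1 or more, and to between 0.0162 and 1.14 in the others. No marker of the eye (ninaE), the cuticle (Lcp1, Lcp2, Lcp3 and Lcp4) or follicle cells (Cp36, Cp38, Yp1, Yp2 and Yp3) reached 1 FPKM in any table. Since wupA, up and Mlc2 are both markers and members, the muscle sum is not independent of the rule. Nor is the Osiris sum, to which the members Osi6 and Osi7 gave 26.2 and 15.4 FPKM at 3–4 h. First on at 3–4 h therefore refers to this collection, and whether its embryos were all of the labelled age was not tested. The part of this in the results was not tested either. Below, the main counts over all members for changes after 3–4 h and for the knockout at 4–5 h are also given without the 9 genes. Counts by role, by course and by locus span include them.

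**Figure D1:**
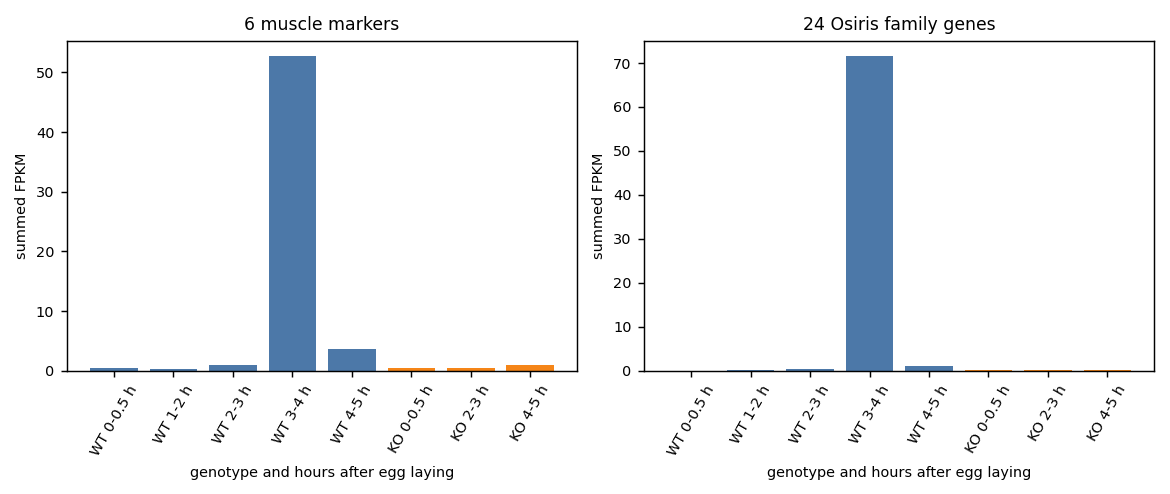
Summed FPKM of 6 muscle markers (left) and of 24 Osiris genes (right), bars, in each of the 8 tables by genotype (WT, wild type, blue; KO, maternal NSUN2 knockout, orange) and hours after egg laying. The 3–4 h wild-type bar stands at 52.7 on the left and 71.5 on the right, and no other bar exceeds 3.60 or 1.14.

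The members' median FPKM was 0.0954, 0.0460 and 0.352 at the first 3 wild-type stages, 15.4 at 3–4 h and 9.35 at 4–5 h. The 3 knockout tables had medians of 0.0353, 0.429 and 2.95 FPKM. At 4–5 h, 68 of the 77 were at 1 FPKM or more in wild type and 48 in the knockout, and 38 and 8 were at 10 or more. Together the members made up 0.175% of the summed FPKM of the 3–4 h wild-type table, 0.0996% of that of 4–5 h and 0.0333% in the knockout of 4–5 h. In RNA from whole embryos, fewer cells of a type and less RNA per cell cannot be told apart.

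**Figure D2:**
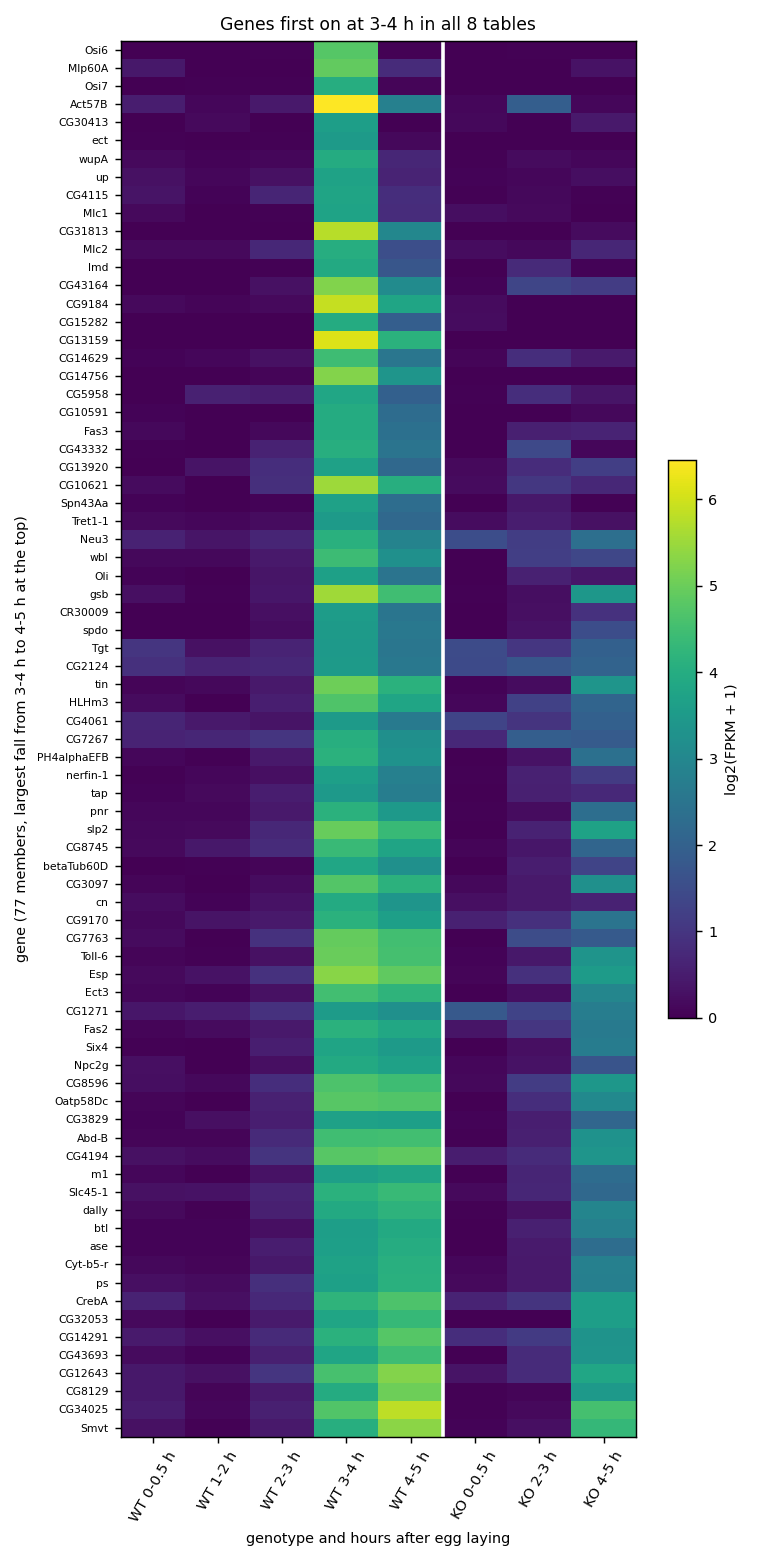
FPKM of the 77 genes (rows, ordered by the change from 3–4 h to 4–5 h in wild type, largest fall at the top) in the 8 tables (columns, WT wild type and KO maternal NSUN2 knockout, hours after egg laying), coloured by log2(FPKM + 1). The first 3 wild-type columns are dark and the fourth bright by the rule, and in the last column 29 genes are below 1 FPKM.

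The members are first described by role. The groups were drawn up after the values were seen and cover 38 of the 77 genes, while no role is given for the other 39. Beyond the genes taken by the naming rule, those named in this account as examples of a role were chosen after their values were seen. Levels are FPKM, in the order of the 5 wild-type stages and then of the 3 knockout stages, and a 0 is a value listed at 0.

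Regulators of body pattern and of organ primordia were gsb, slp2, Abd-B, pnr and CrebA. The paired-type segment polarity gene gsb had 0.197, 0.0264, 0.302, 45.5 and 21.2 FPKM in wild type and 0.0223, 0.177 and 9.79 FPKM in the knockout. The forkhead gene slp2 (chr2L:3836842-3839201, BDGP5), a segment regulator, went through 0.0935, 0.123, 0.658, 30.4 and 19.3 FPKM, and through 0.0148, 0.547 and 12.2 FPKM. Both were near 0 in the knockout at 2–3 h and well on at 4–5 h, below the wild-type level of either stage. Abd-B (chr3R:12752932-12797958), the Hox gene of the posterior abdomen, held its level in wild type, with 0.0691, 0.0650, 0.709, 21.4 and 21.5 FPKM, against 0.0274, 0.478 and 8.89 FPKM. For pnr, the GATA factor of the dorsal ectoderm, the values were 0.0892, 0.0839, 0.349, 16.4 and 10.04 FPKM, and 0.0353, 0.153 and 4.04 FPKM. CrebA, the bZIP regulator of secretory genes in the salivary gland, had 0.539, 0.205, 0.674, 17.4 and 24.3 FPKM and, in the knockout, 0.560, 0.950 and 11.3 FPKM. At 4–5 h the knockout level of the 5 genes was from 40.3% (pnr) to 62.9% (slp2) of the wild-type level, and in 4 of the 5 it was lower by at least 2-fold on the log2(FPKM + 1) scale, against 7.44% of all 8724 genes with FPKM of at least 1 in some table.

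Of the genes of mesoderm and myoblasts, tin and Six4 encode homeodomain proteins, tin that of the heart and dorsal mesoderm. The gene tin (chr3R:17204701-17207692) had 0.0551, 0.104, 0.350, 32.1 and 16.5 FPKM in wild type and 0.0437, 0.152 and 9.31 FPKM in the knockout. Six4 had 0.0328, 0, 0.450, 12.8 and 10.5 FPKM, and 0, 0.206 and 5.53 FPKM. These 2 genes reached 56.4% and 52.5% of the wild-type level at 4–5 h. Different values were seen for lmd (chr3R:18846944-18852435), the zinc finger regulator of fusion-competent myoblasts. It was listed at 0 at 0–0.5 h and 1–2 h and had 0.0264, 14.1 and 2.32 FPKM at the later wild-type stages, against 0.0107, 0.693 and 0.0411 FPKM in the knockout, which is 1.77% of wild type at 4–5 h. The beta-tubulin gene of the mesoderm, betaTub60D, had 0, 0.0327, 0.0680, 13.1 and 8.47 FPKM, and 0, 0.440 and 1.51 FPKM. The levels of lmd and betaTub60D in the knockout were thus further below wild type than those of tin and Six4. Of the 4 genes, lmd and betaTub60D were lower by at least 2-fold, against 7.44% of all genes tested.

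Genes of neural precursors and of the Enhancer of split complex were 7, with a knockout level at 4–5 h of 6.91% to 36.9% of wild type. The knockout was lower by at least 2-fold in all 7, against 71.4% of all members and 7.44% of all genes tested. The proneural-type bHLH gene ase (chrX:354533-357209), a marker of neuroblasts, had 0.0489, 0.0460, 0.430, 11.6 and 14.9 FPKM in wild type and 0, 0.374 and 3.92 FPKM in the knockout. The zinc finger gene nerfin-1 had 0.0269, 0.0759, 0.210, 11.5 and 6.03 FPKM, and 0.0213, 0.500 and 1.17 FPKM. For tap, a bHLH gene related to the neurogenins of vertebrates, the values were 0.0418, 0.118, 0.429, 10.3 and 5.64 FPKM, and 0, 0.479 and 0.669 FPKM. While ase was higher at 4–5 h than at 3–4 h in wild type and stood at 26.2% of wild type in the knockout, nerfin-1 and tap were lower at 4–5 h than at 3–4 h in wild type and at 19.3% and 11.9% in the knockout. Oli, a bHLH gene of the Olig family, went from 11.7 to 4.59 FPKM in wild type and had 0, 0.507 and 0.318 FPKM in the knockout.

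HLHm3 (chr3R:21847437-21848849), a bHLH repressor that Notch signalling switches on, had 0.133, 0, 0.454, 24.9 and 13.0 FPKM in wild type and 0.0790, 1.36 and 3.21 FPKM in the knockout. It is 1 of the members that were above 1 FPKM in the knockout at 2–3 h. Its neighbour m1 (chr3R:21840446-21842209), a gene of the same complex with a Kazal-type protease inhibitor domain and 5.23 kb away, had 0.0847, 0, 0.252, 11.5 and 12.8 FPKM, and 0, 0.600 and 3.86 FPKM. At 4–5 h the knockout reached 24.7% of wild type for HLHm3 and 30.2% for m1. The gene spdo, whose membrane protein is needed for Notch signalling in asymmetric divisions, had 10.5 and 5.03 FPKM at 3–4 h and 4–5 h and 1.86 FPKM in the knockout at 4–5 h. Its locus lies inside that of PH4alphaEFB, another member, so the values of these 2 genes are uncertain.

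Receptors and adhesion proteins were btl, Toll-6, dally, Fas2 and Fas3. All 5 were lower by at least 2-fold in the knockout at 4–5 h, against 7.44% of all genes tested. The FGF receptor gene of the trachea, btl (chr3L:14068872-14076329), had 0.0456, 0.0535, 0.211, 11.3 and 14.2 FPKM in wild type and 0.00900, 0.486 and 6.07 FPKM in the knockout. Toll-6, a Toll family receptor gene, had 0.0686, 0.0308, 0.229, 30.8 and 22.5 FPKM, and 0.0361, 0.325 and 9.12 FPKM. Fas2, an immunoglobulin-type adhesion protein gene, had 0.0699, 0.138, 0.350, 16.6 and 13.7 FPKM, and 0.296, 1.01 and 5.26 FPKM. These 3 genes stood at 38.5% to 42.8% of wild type, and dally, a glypican gene, at 38.7%. Fas3 (chr2L:18320101-18393441), an adhesion gene of epithelia and visceral mesoderm, had 0.0922, 0, 0.0991, 14.7 and 4.19 FPKM, and 0.0116, 0.473 and 0.549 FPKM. It was the only 1 of the 5 that fell by at least 2-fold from 3–4 h to 4–5 h in wild type, against 7.32% of all genes tested, and its knockout level at 4–5 h was 13.1% of wild type.

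Transporters and enzymes were 9, of which 7 were lower by at least 2-fold in the knockout at 4–5 h, against 7.44% of all genes tested. Smvt (chr3R:27585126-27587299), a sodium-dependent multivitamin transporter gene, had 0.225, 0.0211, 0.352, 15.6 and 39.4 FPKM in wild type and 0.0534, 0.195 and 18.8 FPKM in the knockout. Esp, of the sulfate transporter family, had 0.112, 0.245, 0.890, 38.5 and 28.5 FPKM, and 0.0588, 0.866 and 10.6 FPKM. Smvt was the member with the largest rise after 3–4 h and the only 1 whose knockout level at 4–5 h (interval 17.7 to 19.9) was above the wild-type level at 3–4 h (14.4 to 16.8). The gene cn, kynurenine 3-monooxygenase of the eye pigment pathway, had 0.163, 0.0439, 0.251, 14.3 and 9.35 FPKM, and 0.203, 0.368 and 0.534 FPKM. At 5.71% of wild type it had the lowest level of the 9 relative to wild type at 4–5 h. Tgt, a tRNA-guanine transglycosylase gene, had 0.989, 0.226, 0.557, 10.03 and 4.80 FPKM, and 1.76, 1.04 and 2.95 FPKM, or 61.5% of wild type at 4–5 h.

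Genes of muscle contraction were Act57B (a muscle actin), Mlc1 and Mlc2 (myosin light chains), wupA (troponin I), up (troponin T) and Mlp60A (a muscle LIM protein). Act57B was the highest member at 3–4 h, with 0.422, 0.0745, 0.361, 87.2 and 5.99 FPKM in wild type and 0.0837, 2.84 and 0.0807 FPKM in the knockout. Its intervals were 82.5 to 91.9 at 3–4 h, 5.11 to 6.87 at 4–5 h and, in the knockout, 2.33 to 3.34 at 2–3 h and 0 to 0.166 at 4–5 h. Mlp60A had 0.324, 0, 0, 28.8 and 0.734 FPKM, and 0, 0 and 0.252 FPKM. All 6 fell by at least 2-fold from 3–4 h to 4–5 h in wild type, against 7.32% of all genes tested. They went to between 2.55% and 12.4% of the 3–4 h level, and 4 of them were then below 1 FPKM. At 4–5 h in the knockout, all 6 were at 0.620 FPKM or less. Only 1 of the 6 (Act57B) was lower than wild type of that age by at least 2-fold, against 7.44% of all genes tested. The Osiris genes Osi6 and Osi7 went from 26.2 and 15.4 FPKM at 3–4 h to 0.0333 and 0.0539 FPKM at 4–5 h, and stood at 0.0236 FPKM or less in every knockout table. Both were near the floor in both genotypes at 4–5 h, and neither was lower by 2-fold in the knockout.

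**Figure D3:**
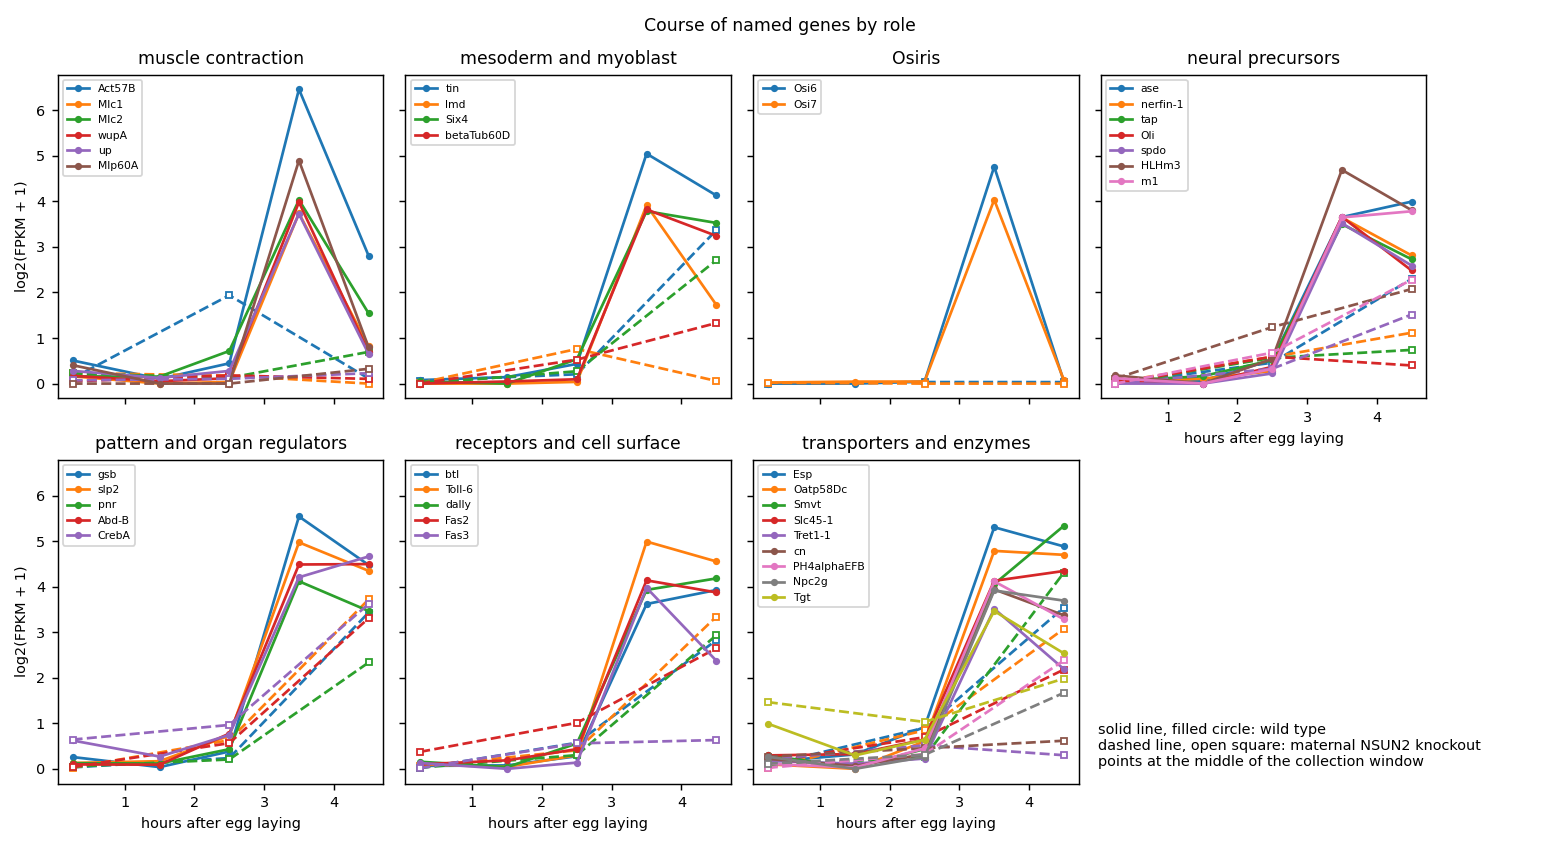
log2(FPKM + 1) of 38 members (vertical axis) against the middle of the collection window in hours after egg laying (horizontal axis), 1 panel per role, with solid lines and filled circles for wild type and dashed lines and open squares for maternal NSUN2 knockout. All wild-type lines jump at 3–4 h, as the rule demands, the muscle and Osiris genes drop back at 4–5 h, and the knockout lines of the pattern and organ regulators end at 40.3% to 62.9% of the wild-type FPKM.

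Genes that the tables list by number held several of the highest levels at 3–4 h. CG13159 had 68.6 FPKM at 3–4 h (interval 61.2 to 76.1) and 16.3 FPKM at 4–5 h (12.5 to 20.2), and was listed at 0 in the 3 earlier wild-type tables and in all 3 knockout tables. CG9184 (chr3L:1321792-1322806) had 0.118, 0.0556, 0.116, 58.7 and 12.8 FPKM, and 0.141, 0 and 0 FPKM. CG14756 was listed at 0 at 0–0.5 h and 1–2 h, had 0.0631, 37.1 and 9.35 FPKM later, and was listed at 0 in all knockout tables. These 3 genes were at 9.35 FPKM or more in wild type at 4–5 h and listed at 0 in the knockout of that age. CG31813 (chr2L:13736140-13736793), named nur in the reference names, had 53.4 and 6.94 FPKM at 3–4 h and 4–5 h and 0.134 FPKM in the knockout at 4–5 h. CG10621 had 0.147, 0, 0.824, 44.7 and 15.5 FPKM, and 0.146, 1.07 and 0.644 FPKM. CG43164 had 36.6 and 7.66 FPKM at 3–4 h and 4–5 h, and 0.0364, 1.53 and 1.24 FPKM in the knockout. All 6 fell by at least 2-fold after 3–4 h in wild type, against 7.32% of all genes tested.

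After 3–4 h, the members took different courses in wild-type embryos. On the log2(FPKM + 1) scale, 32 of the 77 fell by at least 2-fold, 42 stayed within 2-fold and 3 rose by at least 2-fold, while over all 8724 genes tested, 7.32% fell and 0.928% rose. The median change was −0.84 for the members and −0.03 for all genes tested. As the rule asked for a high value at 3–4 h, a fall is favoured by how the genes were chosen, and nothing is read from these shares. Between the same tables, the sum of the 6 muscle markers went from 52.7 to 3.60 FPKM, and its part in the members' falls was not tested. If intervals that do not overlap are counted in place of a 2-fold change, 55 members were lower and 14 higher, against 31.4% and 22.1% of all genes. Of the 68 members that were at 1 FPKM or more at 4–5 h, 23 fell, 3 rose, and by intervals 46 were lower and 14 higher. The median change of these 68 was −0.64. For 47 genes chosen by the same limits at 4–5 h in place of 3–4 h, after the values were seen, the median change was 0.13, with 4 that fell and 5 that rose, so the direction depended on which table chose the genes.

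The 3 members that rose were Smvt, CG34025 and CG8129. CG34025 (chr3L:2959722-2961049) had 0.4004, 0.0754, 0.470, 25.2 and 55.7 FPKM in wild type and 0.0318, 0.126 and 22.5 FPKM in the knockout, and was the highest member at 4–5 h in both genotypes. CG8129 (Srr in the reference names) had 0.337, 0.0655, 0.384, 14.6 and 31.8 FPKM, and 0.0277, 0.0665 and 10.2 FPKM. All 3 were at 0.195 FPKM or less in the knockout at 2–3 h and at 10 FPKM or more at 4–5 h. The next largest increases were those of CG12643, from 22.98 to 37.5 FPKM, and CG43693, from 12.9 to 21.1 FPKM. The largest falls were those of Osi6, Mlp60A, Osi7, Act57B and CG30413, the last of which went from 11.3 FPKM at 3–4 h to a listed 0 at 4–5 h.

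In maternal NSUN2 knockout embryos at 4–5 h, the genes first on at 3–4 h had lower levels than in wild type. At the limits of the rule, 8 of the 77 were at 10 FPKM or more, 40 from 1 to 10 and 29 below 1. Of the 77, 76 had a lower FPKM than wild-type embryos of the same age, as had 5102 of the 8724 genes tested. By at least 2-fold, 55 members (71.4%) were lower, against 7.44% of all genes tested. None was higher by 2-fold, against 11% of all genes. The median difference on the log2(FPKM + 1) scale was −1.29 (interquartile range −1.89 to −0.90) for the members and −0.18 (−0.63 to 0.38) for all genes tested. The median half-width of the 2 Cufflinks intervals was 0.13 on the same scale. By intervals that do not overlap, 70 members were lower in the knockout and none higher, against 42.7% and 30.2% of all genes. The 1 member above wild type was CG30413, with 0.369 FPKM (0 to 0.738) against a listed 0.

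Of the 68 members with at least 1 FPKM in wild type at 4–5 h, which leaves out the 9 seen in the 3–4 h table only, the same 55 were lower by at least 2-fold and all 68 were lower by intervals that do not overlap. The levels of these 68 in the knockout were from 0 to 67.5% of wild type, with a median of 32.3%. A minimum on the wild-type value favours a lower knockout value, here and in the classes of wild-type level that follow. Other transcripts moved in the same comparison. The summed FPKM of 4 maternal transcripts (bcd, osk, nos and gcl) was 90.0 in the knockout at 4–5 h and 33.9 in wild type, and that of 5 genes of the early zygotic wave (sisA, sc, nullo, bnk and Sry-alpha) was 59.95 and 100.5. The part of these differences in the members' values was not tested.

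The share of the wild-type level was next compared between members of high and of lower level. Among the 38 with at least 10 FPKM, 33 were lower by at least 2-fold, against 7.44% of all genes tested, which had no such minimum. Their knockout level had a median of 38.1% of wild type (interquartile range 29.4% to 43.0%, lowest 0, highest 62.9%). Of these 38, 8 were at 10 FPKM or more in the knockout, 27 between 1 and 10, and 3 below 1. Among the 30 members from 1 to 10 FPKM in wild type, the median was 14.6% (3.46% to 35.8%), 13 were under 10% and 6 above 40%, and 17 were below 1 FPKM in the knockout. The quartiles were thus further apart at low levels, where the interval of each value is also wider.

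**Figure D4:**
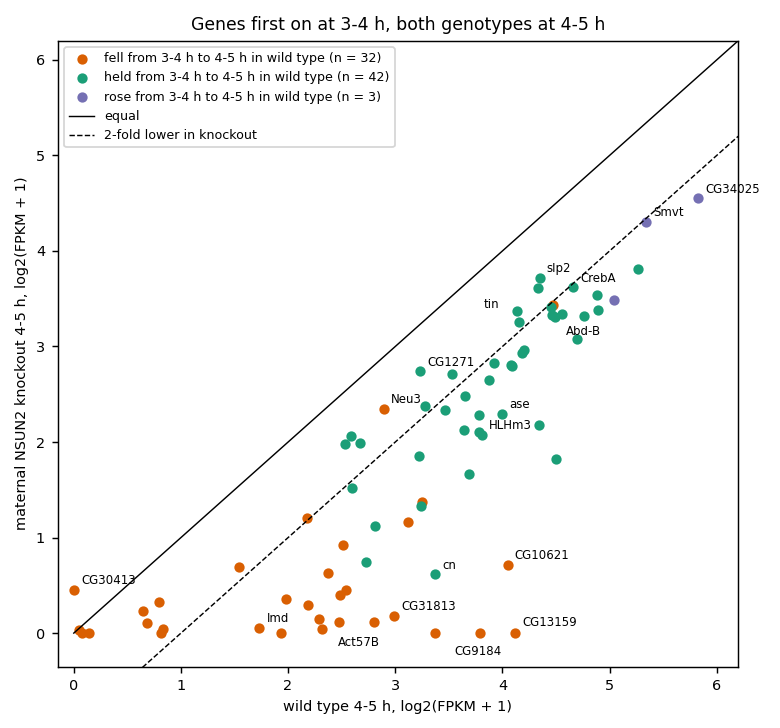
Each point is 1 of the 77 genes, with log2(FPKM + 1) at 4–5 h in wild type (horizontal axis) and in maternal NSUN2 knockout (vertical axis), coloured by the course from 3–4 h to 4–5 h in wild type. The solid line marks equal values and the dashed line a 2-fold lower knockout value, and 76 of the 77 points lie below the solid line, 55 of them on or below the dashed line.

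By the course after 3–4 h in wild type, the knockout was lower by at least 2-fold for 20 of the 32 members that fell, 32 of the 42 that held and 3 of the 3 that rose, with medians of −1.71, −1.24 and −1.27. Over all genes tested, the medians for the same courses were −0.11, −0.17 and −1.01, with 8.14%, 6.95% and 50.6% lower. As a share of the wild-type level at 4–5 h, members that fell and were still at 1 FPKM or more (23 genes) had a median of 6.46%, those that held 38.1% and those that rose 40.3%. The course and the difference between genotypes share the wild-type values at 4–5 h, so they are not independent. In FPKM at 4–5 h, members that fell had a median of 3.94 in wild type and 0.153 in the knockout. In the knockout, 27 of these 32 were below 1 FPKM, against 2 of the 42 that held and 0 of the 3 that rose. Of the 27, 9 were also below 1 FPKM in wild type at 4–5 h, as was no member that held or rose.

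The largest differences were −4.12 for CG13159, −3.79 for CG9184, −3.37 for CG14756, −3.33 for CG10621 and −2.81 for CG31813 on the log2(FPKM + 1) scale, all in genes that the tables list by number. The other end held CG30413 (0.45), Osi6 (−0.01), Osi7 (−0.08), ect (−0.14) and up (−0.42), which were all below 1 FPKM in both genotypes at 4–5 h. Among members with a wild-type level of at least 1 FPKM, the highest shares of wild type were those of CG1271 (67.5%), CG2124 (63.8%), Neu3 (63.7%), slp2 (62.9%), Tgt (61.5%), CG32053 (58.5%), tin (56.4%) and CG4061 (55.2%). Of these 8, chosen after their values were seen, CG1271, CG2124, Neu3, Tgt and CG4061 were also the 5 members at 1 FPKM or more in knockout embryos at 0–0.5 h.

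At 0–0.5 h, before zygotic transcription of most genes, 5 members were thus above 1 FPKM in the knockout, while the rule held all wild-type values below 1. CG1271 (chr3L:3052514-3054906) had 0.307, 0.428, 0.899, 10.6 and 8.41 FPKM in wild type and 2.47, 1.47 and 5.67 FPKM in the knockout. CG2124 had 0.862, 0.550, 0.647, 10.4 and 5.00 FPKM, and 1.75, 2.32 and 3.19 FPKM. Neu3 had 0.548, 0.299, 0.585, 16.3 and 6.43 FPKM, and 1.90, 1.25 and 4.09 FPKM. In all 3 genes the highest knockout value was that at 4–5 h. CG4061 had 1.52, 0.954 and 2.96 FPKM in the knockout, and its locus overlaps that of CG4045, which was at 39.1 FPKM in wild type at 3–4 h. At 0–0.5 h, 1 of the 77 members (CG1271) was higher by at least 2-fold in the knockout, against 7.6% of all genes, and none was lower, against 1.48%. By intervals that do not overlap, 7 were higher and 3 lower, against 34.9% and 21.5%. The rule held the wild-type values below 1 FPKM, so on the log2(FPKM + 1) scale none could be lower by 2-fold. Nothing is read from these counts.

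At 2–3 h, when all members were below 1 FPKM in wild type by the rule, 15 were at 1 FPKM or more in the knockout, 4 of them also at 0–0.5 h. The highest were Act57B (2.84 FPKM), CG7267 (2.81), CG2124 (2.32), CG7763 (1.82), CG43332 (1.71), CG43164 (1.53), CG1271 (1.47), HLHm3 (1.36), wbl (1.30) and Neu3 (1.25). CG7267 had 0.549, 0.604, 0.990, 15.7 and 8.34 FPKM in wild type and 0.663, 2.81 and 2.61 FPKM in the knockout. CG7763 had 0.140, 0, 0.894, 29.8 and 21.6 FPKM, and 0, 1.82 and 2.53 FPKM. Both stayed below 3 FPKM in the knockout at either stage. On the log2(FPKM + 1) scale, 3 members (Act57B, CG43164 and CG2124) were higher by at least 2-fold in the knockout, against 28.5% of all genes tested, and none was lower, against 9.73%. Since the rule held the wild-type value down, nothing is read from these counts. By intervals that do not overlap, 18 were higher in the knockout and 6 lower, against 49.1% and 28.2% of all genes.

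From 2–3 h to 4–5 h in the knockout, 38 members (49.4%) went up by at least 2-fold, against 13.6% of all genes tested, and 16 went down, 2 of them (Act57B and CG43332) by at least 2-fold, against 11.1%. By intervals that do not overlap, 45 were higher at 4–5 h and 5 lower, against 33.7% and 41.5%. Of the 16, 15 belonged to the members that fell after 3–4 h in wild type. The 5 lower by intervals were among these (Act57B, CG43332, lmd, CG5958 and Spn43Aa). CG43332 (chr2L:14161144-14163222) had 0.0221, 0, 0.540, 15.6 and 4.56 FPKM in wild type and 0, 1.71 and 0.0843 FPKM in the knockout. Spn43Aa, a serpin gene, had 0.0382, 0, 0.0374, 12.05 and 4.00 FPKM, and 0, 0.331 and 0.0292 FPKM. The knockout values of these 5 genes were highest at 2–3 h and at 0.283 FPKM or less at 4–5 h. The summed FPKM of the 6 muscle markers in the knockout was 0.383, 0.368 and 0.973 at 0–0.5 h, 2–3 h and 4–5 h. Each of the 6 was at 0.620 FPKM or less in these tables, which is near the floor. How this sum relates to the level of Act57B, which is not among the 6, was not tested. Over all 3 knockout tables, 26 members stayed below 1 FPKM.

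Set against the wild-type stage at which the genes were first on, the knockout at 4–5 h was lower for 76 of 77 members. It was also lower for 5312 of the 8724 genes tested. By at least 2-fold it was lower for 64 members, against 16.8% of all genes tested. None was higher by 2-fold, against 10.2%. The rule used the wild-type value at 3–4 h, so this is a description only. By intervals that do not overlap, 74 members were lower in the knockout than at 3–4 h in wild type and 1, Smvt, was higher, against 47.9% and 29.4% of all genes. Of the 68 members at 1 FPKM or more in wild type at 4–5 h, 67 were lower, 55 by at least 2-fold and 65 by intervals.

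Loci of the members differed in length. The median difference between knockout and wild type at 4–5 h was −1.93 for the 21 members with a locus span below 2 kb (19 lower by at least 2-fold), −1.19 for the 44 from 2 to 10 kb (28 lower) and −1.13 for the 12 above 10 kb (8 lower). All genes tested had medians of −0.16, −0.17 and −0.25 in the same classes, with 8.55%, 6.02% and 8.48% lower by at least 2-fold. The short members included CG13159, CG9184, CG14756 and CG31813, and 11 of the 21 fell after 3–4 h in wild type, against 17 of the 44 and 4 of the 12 in the longer classes. The members lay on 2L (10 genes), 2R (16), 3L (18), 3R (21) and X (12), where X held 15.6% of the members and 15.7% of all genes tested. By arm, the medians were −1.84, −1.90, −1.17, −1.13 and −1.20. Besides m1 with HLHm3 and spdo with PH4alphaEFB, CG4194 and CG4061 were the only members within 10 kb of each other, 2.72 kb apart. The loci of 22 members overlapped that of another gene, which had the higher FPKM at 3–4 h in 6 cases (CG4061, CG13920, CG8596, CG8129, Tret1-1 and spdo). Mapping was strand-specific, but whether Cufflinks used the strand is not given in the sources used here, so these 6 values are uncertain.

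Genes with a similar wild-type course were set beside the members. Only 1 gene was first on at 2–3 h by the same limits and none at 4–5 h, so groups closer to the rule were formed after the values were seen. For 80 genes below 1 FPKM up to 1–2 h, from 1 to 10 at 2–3 h and at least 10 at 3–4 h, the median difference between knockout and wild type at 4–5 h was −1.05, 45 were lower by at least 2-fold and none higher. For 286 genes below 1 up to 2–3 h and from 3 to 10 at 3–4 h, it was −0.82, with 92 lower and 1 higher. On this scale, the same share of the wild-type level gives a smaller difference at a lower level. As a share of the wild-type level, the medians were 44.9% and 40.9%, against 32.3% for the members. Lastly, the 47 genes named above were below 1 FPKM up to 2–3 h and at least 10 at 4–5 h, whatever their level at 3–4 h. This choice does not use the table that stood apart, but it uses the wild-type value at 4–5 h and so favours a lower knockout value. It shared 38 genes with the members (80.9% of the 47 and 49.4% of the 77), and its median difference was −1.27, with 38 lower and none higher.

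**Figure D5:**
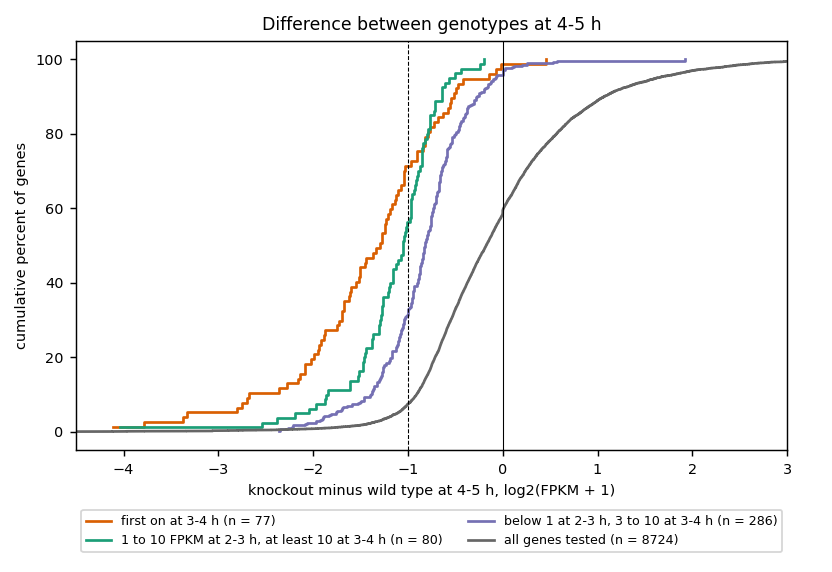
Cumulative percent of genes (vertical axis) against the difference between maternal NSUN2 knockout and wild type at 4–5 h on the log2(FPKM + 1) scale (horizontal axis), for the 77 members, the 80 genes already from 1 to 10 FPKM at 2–3 h, the 286 genes that reached 3 to 10 FPKM at 3–4 h and all 8724 genes tested. The solid vertical line marks no difference and the dashed line a 2-fold lower knockout value, to the left of which lie 71.4% of the members and 7.44% of all genes.

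Textbook lists of genes for tissues and pathways of the embryo held 17 of the members. Of 30 other tested genes in the list for the mesoderm and muscle lineage, 8 were lower by at least 2-fold in the knockout at 4–5 h and none higher (median −0.88). Beside them, 2 of its 4 members tin, lmd, Six4 and Fas2 were lower. This list does not hold betaTub60D or the genes of muscle contraction described above, so it does not cover all members of that lineage. Of 44 other genes of neuroblasts, neurons and glia, 20 were lower and none higher (−0.97), beside the 3 members ase, nerfin-1 and tap, all lower. The Enhancer of split and Bearded complexes had 12 of 14 others lower and none higher (−1.19), beside both members. Over all genes tested, 7.44% were lower and 11% higher. Of the 44 neural genes that were not members, 27 had at least 10 FPKM at 3–4 h but were at 1 or more at an earlier wild-type stage, and 17 were below 10 at 3–4 h. In the Enhancer of split and Bearded list these were 13 and 1 of 14, and in the mesoderm list 13 and 17 of 30.

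In the remaining lists, at most 7 genes outside the members were lower by at least 2-fold, against 7.44% of all genes tested. These were 4 of 26 for segment polarity and Wnt signalling (median −0.79, members gsb and slp2), 5 of 18 for Hox genes and head regulators (−0.82, member Abd-B), and 7 of 20 for trachea, salivary gland and ectodermal organs (−0.85, members btl and CrebA). For dorsal ectoderm and amnioserosa they were 2 of 21 (−0.79, member pnr), for gut and endoderm 6 of 21 (−0.76, member Fas3), and for epithelial junctions and polarity 3 of 21 (−0.65, members Fas3 and Toll-6). No member was in the lists of the ventral midline and EGF receptor pathway (3 of 16 lower, median −0.89), haemocytes and basement membrane (3 of 15, −0.71), steroid hormone synthesis and nuclear receptors (1 of 17, −0.65) or cell death (0 of 8, −0.47). At least 2-fold higher in the knockout were 1 gene each of the gut, haemocyte, junction and cell death lists and 2 of the steroid list, against 11% of all genes tested.

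Genes of close values lay on both sides of each limit of the rule. Just inside the limit of 10 FPKM at 3–4 h were Tgt (10.03), tap (10.3) and CG4061 (10.4), and just outside it CG9336 (9.94), Prat2 (9.89) and CG43444 (9.80). In the knockout at 4–5 h the first 3 had 2.95, 0.669 and 2.96 FPKM and the others 2.05, 0.355 and 5.95 FPKM. Just inside the limit of 1 FPKM at 2–3 h were CG12643 (0.990), CG7267 (0.990) and CG4194 (0.964), and just outside it Rfabg (1.01), Galt (1.03) and Cdep (1.12). Their knockout values at 4–5 h were 13.0, 2.61 and 9.42 FPKM inside and 1.06, 9.32 and 3.73 FPKM outside. The limit on locus span left out 7 genes.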

How the data were processed

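FPKM values of mRNA-seq were analysed, in 8 tables, 1 per condition, with groups taken from the sample labels. The authors trimmed adapters with cutadapt, mapped read pairs strand-specifically with TopHat2 to BDGP5, passed unique alignments to Cufflinks, and deposited its FPKM value for each gene with a lower and an upper bound. The labels state that spike-in RNA was added, and the values were used as deposited, without scaling to it. Because FPKM is relative to the whole library, a change in abundant genes shifts the rest.

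Differences were taken between log2(FPKM + 1) values (pseudocount 1), a scale on which changes of low values appear too small. A 2-fold difference on this scale was counted as a call, and genes with FPKM of at least 1 in at least 1 table were the background. With 1 table per condition no test was run. The members, lists and alternatives were chosen with earlier results of these data known. Named genes were Nsun2, the 10 members highest at 3–4 h, the 5 largest rises and falls after it, the 5 lowest and highest differences between genotypes at 4–5 h, up to 10 members highest in the knockout at 2–3 h, members in the lists and the 3 genes on each side of 2 limits of the rule. Symbols are those of the tables, and 71 of the 77 gene IDs were in the reference names, which give 6 of the members numbered in the tables another symbol. Coordinates are those of the tables, counted from 1. A planned search for promoter motifs was not run, since the reference in hand is of another build. The steps were tested on simulated data. Python 3.11.15, numpy 2.4.6, pandas 2.3.3 and matplotlib 3.10.9 were used. Alternatives were other limits, pseudocounts, calls, scalings and filters.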

Additional observations from a re-analysis of the deposited data

How the results depend on the processing

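The median change from 3–4 h to 4–5 h in wild type (−0.84) turned to 0.13 with the limit set at 4–5 h in place of 3–4 h (chosen after seeing the data), and no other called value changed sign. With an on limit of 5 or 20 FPKM, with quantile scaling, or with the limit at 4–5 h, the rule took 188, 26, 40 and 47 genes in place of 77. The share of members that fell after 3–4 h in wild type (41.6%) was 26.1% with the on limit of 5, 71.4% by intervals apart, 22.1% at 4-fold and 8.51% with the limit at 4–5 h. The share that rose (3.90%) was 18.2% by intervals apart, 0 at 4-fold and 10.6% with the limit at 4–5 h. The share lower in the knockout at 4–5 h (71.4%) was 19.5% at 4-fold. The share higher (0) was 1.19% without the span limit and 1.30% with a pseudocount of 0.1. Against wild type at 3–4 h, the share lower (83.1%) was 53.2% at 4-fold, and the share higher (0) was 1.30% by intervals apart. Members at 1 FPKM or more in the knockout at 2–3 h (19.5%) were 9.62% with an off limit of 0.5, 12.3% with the upper interval bound below 1 and 30% with quantile scaling. Members at 10 or more in the knockout at 4–5 h (10.4%) were 4.26% with the on limit of 5 and 17.0% with the limit at 4–5 h, which also made those below 1 (37.7%) 6.38%. With no filter on level, 4.16% and 6.17% of all genes were lower and higher in the knockout at 4–5 h, 4.10% fell after 3–4 h in wild type, and 9.40% were lower in the knockout at 4–5 h than in wild type at 3–4 h. The other 143 values kept their direction and were within 1.5 times of those reported. Scaling by median of ratios, to equal totals or by quantiles moved the median of all genes in the knockout comparison at 4–5 h by −0.096, −0.021 and 0.0021. Calls of single members changed for 10 with a pseudocount of 0.1, 4 with 0.5 and 1 with median of ratios scaling. The cause of these changes was not tested. No paired analysis was possible because each comparison is between 2 single tables. A fit of genotype over the 3 stages that both genotypes share was not run.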
